A study of Mus musculus with 2 samples.

Results

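The genes described here are the desmosomal cadherins and plaque genes, 10 of the 21628 entries in the expression table of the series. They were chosen by name, as the rows for *Dsg1a*, *Dsg2*, *Dsg3*, *Dsg4*, *Dsc1*, *Dsc2*, *Dsc3*, *Dsp*, *Pkp1* and *Pkp3*, and all 10 were found. RNAseq measured lingual epithelium of Sox2GFP mice at postnatal day 0, in which GFP reports expression of the transcription factor SOX2. Tongue tissue from pooled pups was dissociated with enzymes and sorted by GFP brightness into SOX2-GFPhigh and SOX2-GFPlow cells, about 100000 cells in each population. Both populations share the reporter allele and the age. Each population gave 1 library. The differences below therefore have no replicate check, and no p-value was computed.

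Desmosomes are buttons of strong adhesion that join neighbouring epithelial cells and anchor their keratin filaments. Desmogleins (*Dsg*) and desmocollins (*Dsc*) are the cadherins that cross the membrane and bind those of the next cell. Inside the cell, plakoglobin and plakophilins bind the cadherin tails, and desmoplakin ties this plaque to keratin. In skin, *Dsg3* and *Dsc3* are known mainly from basal and lower layers and *Dsg1* and *Dsc1* from upper layers, while *Dsg2* and *Dsc2* are also made in simple epithelia.

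Values are FPKM, which count sequenced fragments per transcript length and per library size, so levels can be compared between genes. Ratios are SOX2-GFPhigh over SOX2-GFPlow. *Sox2* itself was at 112 FPKM in SOX2-GFPhigh and 59.0 FPKM in SOX2-GFPlow cells, a ratio of 1.90 in the direction of the sort labels. Of the 10 genes, 9 had at least 5 FPKM in both libraries and *Dsg4* was under 5 FPKM in both. A gene was called for a population at 5 FPKM or more there and at least 1.5-fold over the other. By this rule 3 of the 9 genes (*Dsc2*, *Dsg1a* and *Dsg3*) were called for SOX2-GFPhigh, where 9.49% of the 10753 genes at 5 FPKM or more in either library were called. *Dsc1* alone was called for SOX2-GFPlow, beside 8.89% of all such genes. Without regard to size, 7 of the 9 were higher in SOX2-GFPhigh, compared with 44.6% of all genes. After scaling to pan-epithelial genes 3 of the 9 were, compared with 1181 of 11140 genes on that scale. The median log2 ratio of the 9 was 0.35, and that of all genes was -0.04. In these bulk libraries, fewer cells of a type and less RNA per cell cannot be told apart.

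**Figure D1:**
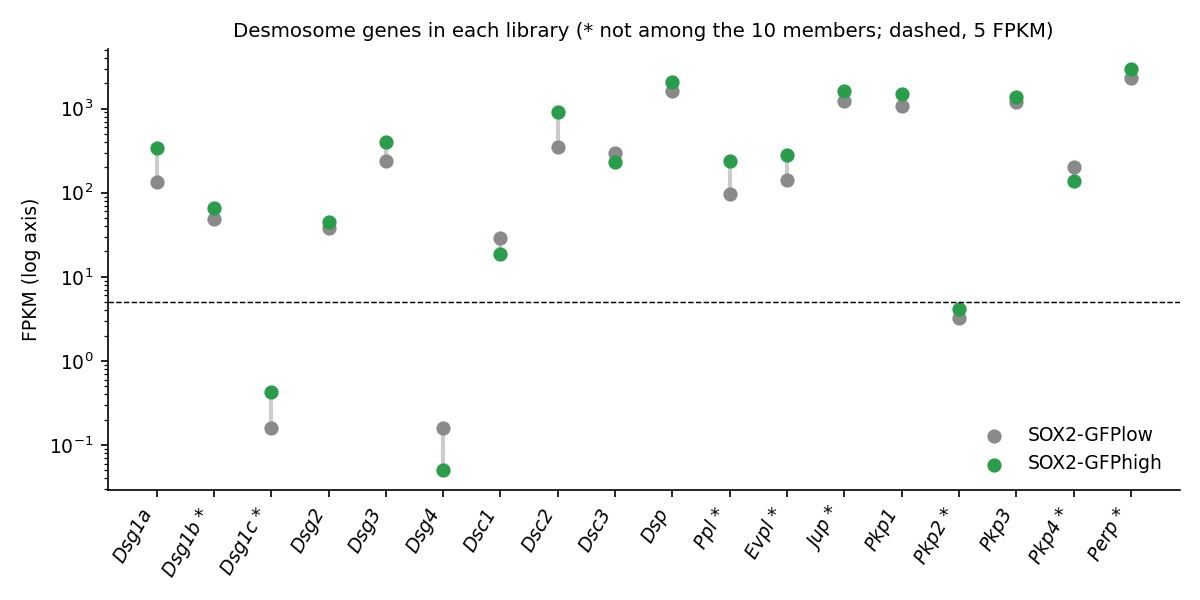
FPKM of 18 desmosome genes (log axis) in the SOX2-GFPhigh library (green) and the SOX2-GFPlow library (grey), with the 10 members unmarked and other desmosome genes starred. *Dsp*, *Pkp1*, *Pkp3*, *Jup* and *Perp* lie at the top in both libraries, and the widest gaps among members over 5 FPKM were those of *Dsc2* and *Dsg1a*.

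The desmocollins differed from each other in direction. *Dsc2* was at 923 FPKM in SOX2-GFPhigh and 353 FPKM in SOX2-GFPlow cells, a ratio of 2.61, and its level ranked 110 of 21553 genes in the first library and 363 in the second. *Dsc3* went the other way, with 230.05 FPKM in SOX2-GFPhigh and 294 FPKM in SOX2-GFPlow cells (ratio 0.783), short of the 1.5-fold limit. After scaling to pan-epithelial genes *Dsc3* was called for SOX2-GFPlow (log2 ratio -0.87), beside 47.8% of all genes. *Dsc1*, the desmocollin of cornifying layers, was the lowest of the 3, at 18.6 FPKM in SOX2-GFPhigh and 29.0 FPKM in SOX2-GFPlow cells. Its ratio of 0.643 lay just past the limit, and the 95% counting interval of that ratio at the estimated depth, 0.612 to 0.674, included the limit. The main desmocollin was thus *Dsc2* in both libraries, but by a different margin. *Dsc2* exceeded *Dsc3* by 4.01-fold within the SOX2-GFPhigh library and by 1.20-fold within the SOX2-GFPlow library.

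Among desmogleins, *Dsg3* had the highest FPKM of single genes in both libraries. It was at 402 FPKM in SOX2-GFPhigh and 239.7 FPKM in SOX2-GFPlow cells, a ratio of 1.68. The call for *Dsg3* was lost after scaling to pan-epithelial genes (log2 ratio 0.23, or 0.57 without *Epcam* and *Cldn7*) and with a 2-fold limit. *Dsg1a*, the mouse copy of desmoglein 1 included here, was at 345 FPKM in SOX2-GFPhigh and 133 FPKM in SOX2-GFPlow cells. Its ratio of 2.59 was close to that of *Dsc2*, and *Dsg1a* made up 0.374 of the *Dsc2* level in SOX2-GFPhigh and 0.378 in SOX2-GFPlow cells. *Dsg2* was at 44.4 FPKM in SOX2-GFPhigh and 37.9 FPKM in SOX2-GFPlow cells, a ratio of 1.17 that fell below 1 after scaling to pan-epithelial genes (log2 ratio -0.29).

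Mice have 3 desmoglein 1 genes that resemble each other, and 35.0% of the 50-nt windows in *Dsg1a* transcripts also occur in transcripts of another gene, mostly *Dsg1b*. For *Dsg1b* the share was 48.9% and for *Dsg1c* 29.6%, so the FPKM of single copies are uncertain. *Dsg1b* was at 66.2 FPKM in SOX2-GFPhigh and 48.8 FPKM in SOX2-GFPlow cells, while *Dsg1c* was under 1 FPKM in both. Summed over the 3 copies, the level was 411 FPKM in SOX2-GFPhigh and 182 FPKM in SOX2-GFPlow cells, and the ratio was 2.26. In SOX2-GFPhigh this sum was above the *Dsg3* level, and in SOX2-GFPlow it was below it. The sum, an alternative chosen after the data were seen, therefore kept the call. No such windows were found for *Dsc1*, *Dsc2*, *Dsc3*, *Dsg4*, *Pkp1* or *Pkp3*, and the share was 0.116% for *Dsg3*, 3.53% for *Dsg2* and 4.66% for *Dsp*.

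*Dsg4*, the desmoglein of the hair shaft cortex, was near the lower end of detection. It was at 0.05 FPKM in SOX2-GFPhigh and 0.16 FPKM in SOX2-GFPlow cells. At the estimated depths these levels correspond to about 5 and 19 reads, and the 95% counting interval of the ratio of 0.313 ran from 0.0998 to 0.947. Levels equal to 3 reads would be 0.0333 FPKM and 0.0256 FPKM. Hair-type keratins and their regulators, which filiform papillae of the tongue also use, were higher in SOX2-GFPlow cells. Of 12 listed genes, 10 reached 5 FPKM in either library, all 10 were higher there, and 9 were called, beside 8.89% of all genes. Among the called genes, *Krt31*, *Krt81* and *Krt83* had 28.1%, 37.7% and 36.9% of their 50-nt windows at another gene. Their FPKM are therefore uncertain. *Krt84* was the most abundant of the listed genes, with 29.1 FPKM in SOX2-GFPhigh and 769 FPKM in SOX2-GFPlow cells. The listed genes summed to 115 FPKM in SOX2-GFPhigh and 1649 FPKM in SOX2-GFPlow cells.

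All desmoglein and desmocollin genes lie in 1 stretch of mouse chromosome 18 (GRCm38, 644 kb), with the 3 desmocollins on the minus strand and the 6 desmogleins on the plus strand. In order along the chromosome the genes are *Dsc3*, *Dsc2*, *Dsc1*, *Dsg1c*, *Dsg1a*, *Dsg1b*, *Dsg4*, *Dsg3* and *Dsg2*. *Dsc2* (chr18:20030633-20059554), with a log2 ratio of 1.39, thus sits between *Dsc3* and *Dsc1*, with log2 ratios of -0.35 and -0.64. *Dsg4*, under 1 FPKM in both libraries, sits between *Dsg1b* and *Dsg3*. Neighbouring genes of the stretch therefore differed both in level and in the direction of the difference.

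The cadherin mixture was also compared within each library, since a share within a library does not depend on how libraries are scaled to each other. Summed over 3 genes, desmocollins were at 1172 FPKM in SOX2-GFPhigh and 676 FPKM in SOX2-GFPlow cells. *Dsc2* held 78.8% of that sum in SOX2-GFPhigh and 52.2% in SOX2-GFPlow cells. The share of *Dsc3* was 19.6% in SOX2-GFPhigh and 43.5% in SOX2-GFPlow cells, and that of *Dsc1* was 1.59% and 4.29%. Desmogleins summed to 858 FPKM in SOX2-GFPhigh and 460.1 FPKM in SOX2-GFPlow cells. Their mixture differed less. *Dsg1a* held 40.2% of the desmoglein sum in SOX2-GFPhigh and 29.0% in SOX2-GFPlow cells, and *Dsg3* held 46.9% and 52.1%. The ratio of summed desmogleins to summed desmocollins was 0.732 in SOX2-GFPhigh and 0.681 in SOX2-GFPlow cells.

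**Figure D2:**
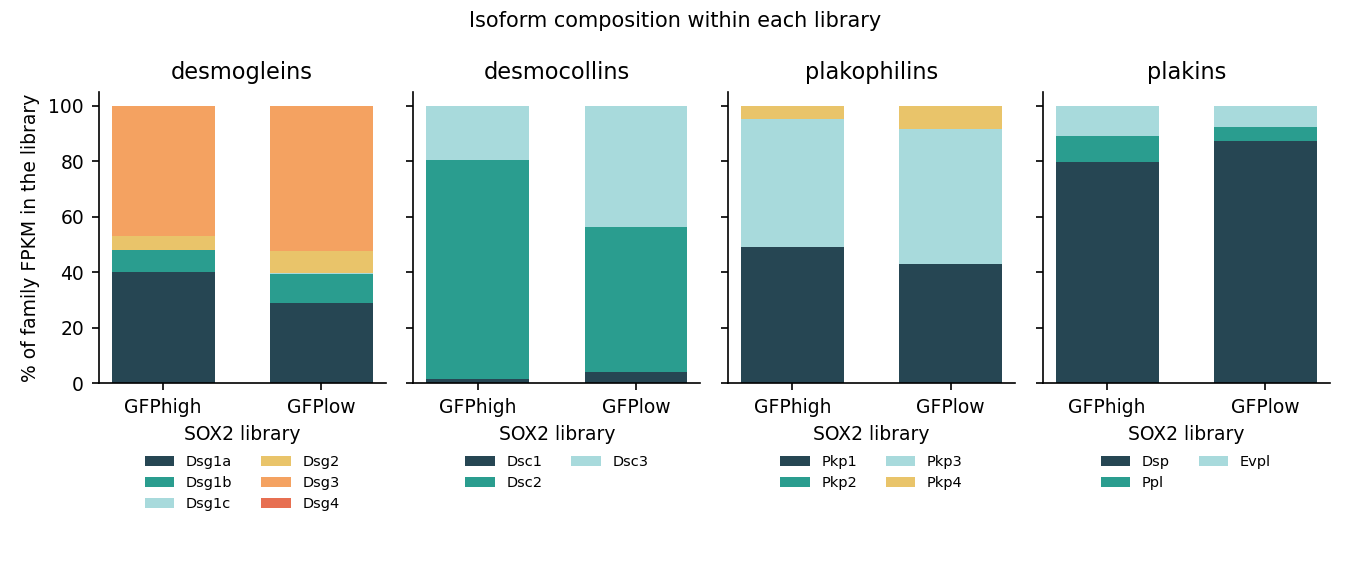
Share of each gene in the summed FPKM of its family within each library, as stacked bars that add to 100%. The desmocollin bars differ most, with *Dsc2* at 78.8% in SOX2-GFPhigh and 52.2% in SOX2-GFPlow cells, while the plakophilin bars are close.

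The 3 plaque genes were among the most abundant transcripts of both libraries and were not called. *Dsp* (chr13:38151294-38198577 of GRCm38) encodes desmoplakin, the link to keratin filaments. It was at 2046 FPKM in SOX2-GFPhigh and 1606 FPKM in SOX2-GFPlow cells, a ratio of 1.27, and ranked 43 and 51 of 21553 genes. *Pkp1* (chr1:135871395-135919207), a plakophilin of stratified epithelia, was at 1478 FPKM in SOX2-GFPhigh and 1061 FPKM in SOX2-GFPlow cells, a ratio of 1.39. *Pkp3* (chr7:141078218-141090510), a plakophilin found in most layers, was at 1386 FPKM in SOX2-GFPhigh and 1200.0 FPKM in SOX2-GFPlow cells, a ratio of 1.16. All 3 ratios fell below 1 when both libraries were scaled to the 6 pan-epithelial genes. The cadherin sum differed more between libraries than *Dsp* did. All desmosomal cadherins summed to 0.992 of the *Dsp* level in SOX2-GFPhigh and 0.707 in SOX2-GFPlow cells.

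Of 8 further desmosome genes, 6 reached 5 FPKM in either library. Of these, 5 were higher in SOX2-GFPhigh, and 2 after scaling to pan-epithelial genes, beside 44.6% and 10.6% of all genes. Plakoglobin, encoded by *Jup* and shared with adherens junctions, was at 1620.1 FPKM in SOX2-GFPhigh and 1220.5 FPKM in SOX2-GFPlow cells. *Perp*, a membrane protein needed for desmosome assembly, was at 2937 FPKM in SOX2-GFPhigh and 2330.5 FPKM in SOX2-GFPlow cells. Their ratios to *Dsp* were close between libraries. *Dsp* was 1.26-fold *Jup* in SOX2-GFPhigh and 1.32-fold in SOX2-GFPlow cells, and 0.697 of *Perp* in the first and 0.689 in the second. *Ppl* and *Evpl*, which encode the plakins periplakin and envoplakin of desmosomes and the cornified envelope, were the 2 called genes of this list. *Ppl* was at 241 FPKM in SOX2-GFPhigh and 95.5 FPKM in SOX2-GFPlow cells, and *Evpl* at 283 FPKM and 141 FPKM. After scaling to pan-epithelial genes *Ppl* kept the call and *Evpl* lost it. *Pkp4*, a relative of the plakophilins found at several junctions, was higher in SOX2-GFPlow, with 139 FPKM in SOX2-GFPhigh and 205 FPKM in SOX2-GFPlow cells, just under the limit at 1.48-fold and past it on the TPM scale. *Pkp2*, the plakophilin of heart and simple epithelia, was at 4.16 FPKM in SOX2-GFPhigh and 3.23 FPKM in SOX2-GFPlow cells.

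Of the 18 desmosome genes, 3 matched the RefSeq promoter table used here (*Dsp*, *Jup* and *Pkp4*). The promoters of *Dsp* and *Jup* are shown, and their part in the levels of these genes was not tested. The sequences are the 250 bases upstream of the start site on the strand of the gene, from RefSeq on GRCm38.p6, for *Dsp* at chr13:38151044-38151293 (plus strand) and for *Jup* at chr11:100397791-100398040 (minus strand). Capitals mark GGGCGG (the GC box, CCGCCC where it lies on the opposite strand) and CCAAT.
Dsp: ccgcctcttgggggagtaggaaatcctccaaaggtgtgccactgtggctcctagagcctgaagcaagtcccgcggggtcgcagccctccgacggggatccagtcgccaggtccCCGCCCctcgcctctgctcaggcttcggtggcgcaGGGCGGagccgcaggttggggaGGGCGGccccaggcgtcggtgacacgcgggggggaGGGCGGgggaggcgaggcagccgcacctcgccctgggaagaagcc
Jup: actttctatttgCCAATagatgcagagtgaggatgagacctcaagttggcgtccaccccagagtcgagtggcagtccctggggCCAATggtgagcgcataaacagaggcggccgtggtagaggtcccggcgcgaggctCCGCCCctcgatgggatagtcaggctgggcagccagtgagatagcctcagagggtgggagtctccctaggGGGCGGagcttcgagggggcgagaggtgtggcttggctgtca
The *Dsp* window holds 4 matches to GGGCGG and the *Jup* window 2. At least 1 match was found in 32.7% of the 32851 promoter windows of this length, which were not selected by genome build. CCAAT occurs at 2 places in the *Jup* window and at none in the *Dsp* window, with 33.8% of all windows holding it. TATAAA (12.4% of all windows), TGACTCA (4.46%), ACAAAG (16.5%), ACAATG (10.7%), TGTTTAC (3.17%) and AACCGGTT (0.116%) were searched on both strands in the same way and occur in neither window. GC content was 72.4% for *Dsp* and 62.0% for *Jup*, with a median of 52.4% over all windows. A match is a description of the letters and not a site of binding.

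Placed among all genes, the members ranged from the top to the lower part of the order of log2 ratios. *Dsc2* ranked 237 and *Dsg1a* 243 of 10753 genes, counted from the highest log2 ratio, while *Dsc3* ranked 8868 and *Dsc1* 9910. The genes nearest to *Dsc2* by level in both libraries, on the log2(FPKM + 1) scale, were *Serpinb3a* (877 FPKM in SOX2-GFPhigh and 388 FPKM in SOX2-GFPlow cells), *Cnfn* (811 FPKM and 355 FPKM) and *Cyp2f2* (1091 FPKM and 379 FPKM). Their distances were 0.15, 0.19 and 0.26, and only 2 genes outside the members lay within 0.25 of *Dsc2*. Around *Dsc1*, 158 genes lay within that distance, and the nearest were *Wdr73*, *Iqce* and *Sav1*, at 0.019 to 0.031. With 2 libraries, such likeness rests on 2 values a gene.

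**Figure D3:**
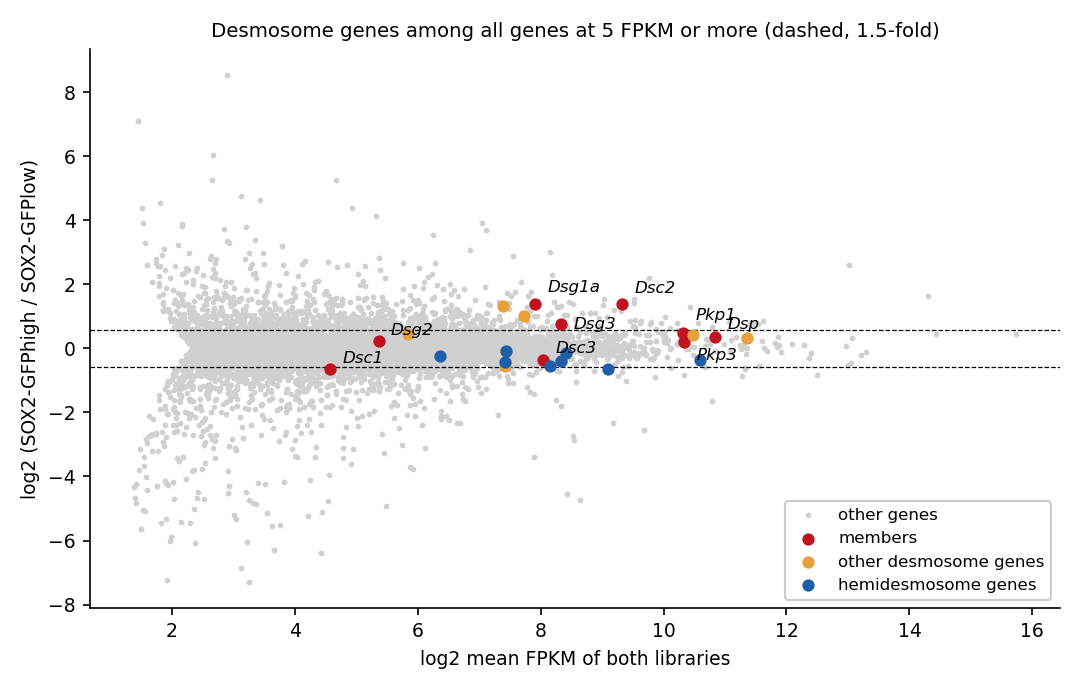
Log2 ratio of SOX2-GFPhigh over SOX2-GFPlow against log2 mean FPKM for genes at 5 FPKM or more in either library and above 0 in both, with members in red, other desmosome genes in orange and hemidesmosome genes in blue. *Dsc2*, *Dsg1a* and *Dsg3* lie above the upper 1.5-fold line, *Dsc1* lies under the lower line and all 8 hemidesmosome genes lie under 0.

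Genes of 2 other anchoring junctions, hemidesmosomes and adherens junctions, were compared. Hemidesmosomes fasten basal cells to the basement membrane, and all 8 of their listed genes were lower in SOX2-GFPhigh under each of the 4 scalings tried as well as in the deposited FPKM. Their median log2 ratio was -0.38, and 1 of them, *Itgb4* (424 FPKM in SOX2-GFPhigh and 664 FPKM in SOX2-GFPlow cells), was called for SOX2-GFPlow (2 on the TPM scale and all 8 after scaling to pan-epithelial genes, where 47.8% of all genes were). For adherens junctions, 9 of 10 genes were higher in SOX2-GFPhigh in the deposited FPKM, 7 on the TPM scale and 2 after scaling to pan-epithelial genes. The shares of all genes on these scales were 44.6%, 33.4% and 10.6%. The median log2 ratio of the adherens junction list was 0.25. *Cdh1*, which encodes E-cadherin, was at 382 FPKM in SOX2-GFPhigh and 309 FPKM in SOX2-GFPlow cells. *Dsc2* was 2.42-fold *Cdh1* in the first library and 1.14-fold in the second. The 2 called genes were afadin, listed as *Mllt4* (331 FPKM in SOX2-GFPhigh and 213 FPKM in SOX2-GFPlow cells), and nectin 4, listed as *Pvrl4* (197 FPKM and 107 FPKM). *Mllt4* lost its call on the TPM scale, and both lost it after scaling to pan-epithelial genes.

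Markers of epithelial layers also differed between the libraries. All 7 basal keratinocyte genes were lower in SOX2-GFPhigh, with a median log2 ratio of -0.38 and 1 called (*Itgb4*; 2 on the TPM scale and all 7 after scaling to pan-epithelial genes, beside 47.8% of all genes). *Itga6*, *Itgb4* and *Col17a1* are also in the hemidesmosome list. The 7 genes summed to 25796 FPKM in SOX2-GFPhigh and 32952 FPKM in SOX2-GFPlow cells. *Krt5*, the most abundant of them, was at 9667 FPKM in SOX2-GFPhigh and 10422 FPKM in SOX2-GFPlow cells. Of 10 suprabasal keratinocyte genes, 9 reached 5 FPKM in either library. These 9 were all higher in SOX2-GFPhigh (6 after scaling to pan-epithelial genes), beside 44.6% of all genes (10.6% after that scaling). In the deposited FPKM 6 were called, beside 9.49% of all genes, and 5 on the TPM scale, where *Sbsn* lost its call. The median log2 ratio of the 9 was 1.42. The suprabasal list summed to 74579 FPKM in SOX2-GFPhigh and 32980 FPKM in SOX2-GFPlow cells, with *Krt13* its most abundant gene in the first library and *Krtdap* in the second. Without *Krt4* and *Krt13*, which were left out after their values were seen, the median log2 ratio was 0.65 and the sums were 29853 FPKM in SOX2-GFPhigh and 20919 FPKM in SOX2-GFPlow cells. *Ivl*, at 0.67 FPKM in SOX2-GFPhigh and 2.19 FPKM in SOX2-GFPlow cells, was the exception. The part of layer in the cadherin differences was not tested.

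Among 10 keratins, the filaments that desmosomes anchor, 4 were called for SOX2-GFPhigh (*Krt4*, *Krt13*, *Krt6b* and *Krt17*) and *Krt76* was called for SOX2-GFPlow. After scaling to pan-epithelial genes *Krt17* lost its call, and *Krt5*, *Krt14* and *Krt15* joined *Krt76* among those called for SOX2-GFPlow (*Krt14* also on the TPM scale). On the pan-epithelial scale 4 of the 10 keratins were thus called for SOX2-GFPlow, beside 47.8% of all genes. *Krt13*, a keratin of mucosal suprabasal cells, was at 30523 FPKM in SOX2-GFPhigh and 9738 FPKM in SOX2-GFPlow cells. *Krt4*, its partner, was at 14203 FPKM and 2323 FPKM. *Krt6b* shares 50.1% of its 50-nt windows with another gene, mainly *Krt6a*, and its FPKM is uncertain. The *Dsp* level was 0.212 of that of *Krt5* in SOX2-GFPhigh and 0.154 in SOX2-GFPlow cells.

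Of 16 genes that regulate desmosomes or epithelial differentiation, 9 were higher in SOX2-GFPhigh, 8 on the TPM scale and 5 after scaling to pan-epithelial genes. Among all genes 44.6%, 33.4% and 10.6% were. The median log2 ratio of the 16 was 0.07. The 4 called genes all encode transcription factors of keratinocyte differentiation. *Grhl3* was at 168 FPKM in SOX2-GFPhigh and 88.6 FPKM in SOX2-GFPlow cells, and *Klf5* at 310.1 FPKM and 199.5 FPKM. *Ovol1* was at 98.7 FPKM in SOX2-GFPhigh and 54.8 FPKM in SOX2-GFPlow cells, and *Zfp750* at 146 FPKM and 88.0 FPKM. *Klf5* lost its call on the TPM scale. After scaling to pan-epithelial genes none of the 4 was called. On that scale 5 of the 16 genes were called for SOX2-GFPlow, beside 47.8% of all genes. *Grhl1*, a factor known to act on desmosomal cadherin genes, was at 121 FPKM in SOX2-GFPhigh and 80.9 FPKM in SOX2-GFPlow cells, just under the limit and past it after scaling to the median ratio. *Trp63*, the regulator of the basal programme, was at 278 FPKM in SOX2-GFPhigh and 359 FPKM in SOX2-GFPlow cells.

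Corneodesmosomes are the modified desmosomes of cornified layers, and the proteases and inhibitors of this list act on them. Of 7 genes, 6 reached 5 FPKM in either library, 3 were higher in SOX2-GFPhigh and 3 in SOX2-GFPlow (1 and 5 after scaling to pan-epithelial genes). Of all genes, 44.6% were higher in SOX2-GFPhigh, and 10.6% after that scaling. *Cdsn*, which encodes corneodesmosin, was at 2.36 FPKM in SOX2-GFPhigh and 6.31 FPKM in SOX2-GFPlow cells. The protease gene *Klk14* was at 9.32 FPKM in SOX2-GFPhigh and 29.0 FPKM in SOX2-GFPlow cells, and both genes were called for SOX2-GFPlow. *Ctsd*, a lysosomal protease gene, was called for SOX2-GFPhigh with 894 FPKM against 586 FPKM, but not on the TPM scale. Its FPKM is uncertain, since 32.4% of its 50-nt windows occur at another gene, as do 21.0% for *Klk14*.

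**Figure D4:**
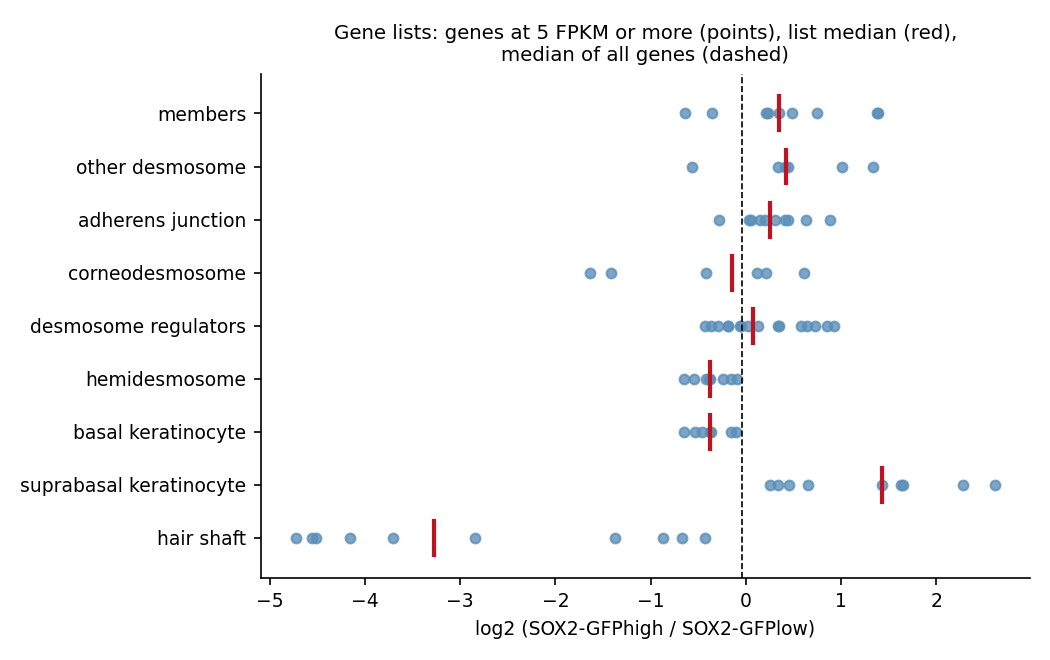
Log2 ratio of SOX2-GFPhigh over SOX2-GFPlow for each gene at 5 FPKM or more in either library (points), by list, with the list median in red and the median of all genes (-0.04) dashed. The members spread on both sides of 0 with a median of 0.35, hemidesmosome and basal genes lie under 0, and suprabasal genes lie above 0 in the deposited FPKM.

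The direction of *Dsg2*, *Dsp*, *Pkp1* and *Pkp3* changed under 1 of the scalings tried, that to pan-epithelial genes. The 6 pan-epithelial reference genes had a geometric mean of 159 FPKM in SOX2-GFPhigh and 111 FPKM in SOX2-GFPlow cells, and *Epcam* and *Cldn7* among them were themselves called for SOX2-GFPhigh. Scaling to them lowered every log2 ratio by 0.52 and moved the median of all genes to -0.57. On that scale *Dsc2* (0.87) and *Dsg1a* (0.85) kept their calls, *Dsg3* (0.23) lost its call, and *Dsc3* (-0.87) was called for SOX2-GFPlow beside *Dsc1* (-1.15). With *Epcam* and *Cldn7* left out of the reference, an alternative chosen after the data were seen, every log2 ratio was lowered by 0.18, the median of all genes was -0.23, and 7 of the 9 members were higher in SOX2-GFPhigh, among them *Dsg2* (0.049), *Dsp* (0.17), *Pkp1* (0.30) and *Pkp3* (0.030). *Dsg3* (0.57) was then just under the limit, and the calls for *Dsc2*, *Dsg1a* and *Dsc1* held. On the TPM scale, which moved the median of all genes by -0.10, the called members were those of the deposited FPKM. Over all genes, the calls split into 1020 for SOX2-GFPhigh and 956 for SOX2-GFPlow in the deposited FPKM, 807 and 1217 on the TPM scale, 370 and 5325 after scaling to pan-epithelial genes, and 712 and 1613 without *Epcam* and *Cldn7*. In the deposited FPKM, the median of the 9 members was 0.39 above the median of all genes and 7 of the 9 were above it. A scaling shifts every log2 ratio alike and so leaves this distance nearly unchanged by construction.

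**Figure D5:**
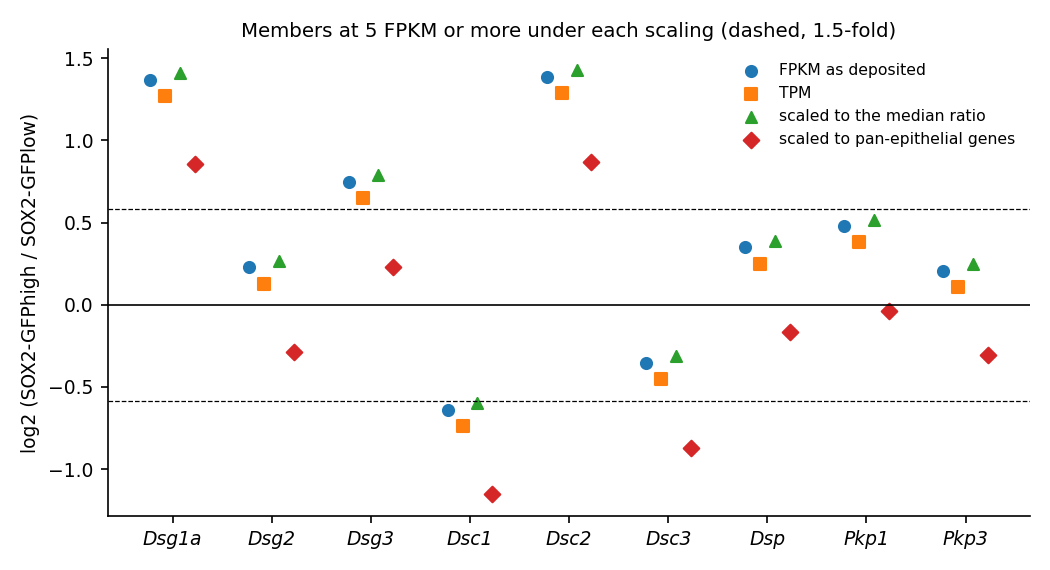
Log2 ratio of SOX2-GFPhigh over SOX2-GFPlow for the 9 members at 5 FPKM or more, in the deposited FPKM and under 3 scalings of the libraries. *Dsg1a* and *Dsc2* stay above and *Dsc1* below the 1.5-fold lines under each scaling shown, while *Dsg2*, *Dsp*, *Pkp1* and *Pkp3* cross 0 when scaled to pan-epithelial genes.

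Epithelial markers were present in both populations, and so were genes of other cell types. The epithelial markers differed in direction. *Epcam* was at 166 FPKM in SOX2-GFPhigh and 86.8 FPKM in SOX2-GFPlow cells. *Cdh1*, *Krt8* and *Krt18* were also higher in SOX2-GFPhigh, with ratios of 1.23, 2.28 and 1.31. *Krt5*, *Krt14* and *Trp63* were lower there, with ratios of 0.928, 0.692 and 0.774. Fibroblast markers were higher in SOX2-GFPlow for the 5 of 8 that reached 5 FPKM in either library. All 5 of these markers were called, beside 8.89% of all genes. They summed over 8 genes to 411 FPKM in SOX2-GFPhigh and 1821 FPKM in SOX2-GFPlow cells, with *Col3a1* the most abundant (193 FPKM and 966 FPKM, the latter above the 309 FPKM of *Cdh1*). Schwann lineage markers summed to 64.5 FPKM in SOX2-GFPhigh and 169 FPKM in SOX2-GFPlow cells, and 3 of 5 were called for SOX2-GFPlow. *Erbb3* was the most abundant of these 5, at 60.3 FPKM in SOX2-GFPhigh and 66.9 FPKM in SOX2-GFPlow cells, while the defining gene *Sox10* was at 0.51 FPKM in SOX2-GFPhigh and 42.7 FPKM in SOX2-GFPlow cells. The 5 endothelial markers summed to 30.5 FPKM in SOX2-GFPhigh and 22.7 FPKM in SOX2-GFPlow cells (mostly *Egfl7*), and 1 was called, *Pecam1* for SOX2-GFPhigh, though not on the TPM scale. The 7 muscle markers summed to 52.5 FPKM and 47.2 FPKM (mostly *Tnnt2*), and the 4 leukocyte markers to 15.6 FPKM and 18.1 FPKM (mostly *Cd68*), with none called in either list. After scaling to pan-epithelial genes 1 marker of each list was called for SOX2-GFPlow, beside 47.8% of all genes. The 4 melanocyte markers summed to 18.5 FPKM in SOX2-GFPhigh and 2.88 FPKM in SOX2-GFPlow cells, and *Mitf*, the most abundant of them in both libraries (17.2 FPKM and 1.24 FPKM), was called for SOX2-GFPhigh. *Mitf* makes up most of the first sum, *Dct* went the other way (0.23 FPKM and 0.91 FPKM), *Pmel* was at 1.09 FPKM and 0.73 FPKM, and *Tyr* was listed at 0 in both. Genes of taste buds and simple epithelium were higher in SOX2-GFPhigh for all 7 listed (6 after scaling to pan-epithelial genes), with a median log2 ratio of 1.11. Of the 7, 6 were called (5 after scaling to pan-epithelial genes, where *Sox2* lost its call with a log2 ratio of 0.41). Of all genes, 44.6% were higher (10.6% after that scaling) and 9.49% were called in the deposited FPKM. The 7 genes summed to 595 FPKM in SOX2-GFPhigh and 301 FPKM in SOX2-GFPlow cells, with *Krt7* the most abundant. The list holds *Sox2*, the gene whose reporter was sorted. *Shh*, a signal made in taste buds, was at 20.7 FPKM in SOX2-GFPhigh and 0.84 FPKM in SOX2-GFPlow cells, with 23.6% of its windows at another gene. The part of these cell types in the differences of the desmosome genes was not tested.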

How the data were processed

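Libraries were stranded and read as single 50-nt ends. Per the submitters' processing notes, the authors used Trimmomatic 0.36, GSNAP, Cufflinks 2.2.1 and the mm10 genome, and deposited FPKM per gene and population. The value columns are named as means, and each was read as the value of 1 library because the labels give 1 sample per population. A deposited fold change column holds the authors' own comparison and was not used. Entries without a number in both libraries (17), repeats of an identifier and genes not protein-coding in GENCODE M21 were dropped, which left 21553 genes (genes unknown to that annotation were kept). List genes under older symbols were matched by gene identifier. After the values were seen, 2 genes were taken out of the lists, for a reason unrelated to their values, and are not reported here.

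Ratios of FPKM were computed with Python 3.11.15 (pandas 2.3.3, numpy 2.4.6, scipy 1.17.1) with no pseudocount. The calling procedure was run on simulated data with planted changes well past the limit. That run checks the code only and does not bear on calls near the limit or on variation between libraries. Named genes are the members, the genes of the lists, and the 3 genes nearest to the members with the highest and lowest log2 ratio among members at 5 FPKM or more in either library. The members and lists were chosen with earlier results of these data known.

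The labels give about 75000000 reads per sample. Low FPKM of genes with 1 transcript fell near whole reads at about 27500000 reads for SOX2-GFPhigh (68.0% of 153 values within 0.15 of a whole read) and 35750000 for SOX2-GFPlow (63.3% of 109), where an even spread gives 30%. Depths and limits were settled on these same values, so they are approximate. Intervals are exact binomial, use annotated exon length less 200 nt, and cover counting error only. Alternatives were pseudocounts of 1 and 0.1, TPM, scaling to the median ratio or to pan-epithelial genes, other FPKM minimums, a 2-fold limit and, added after the data were seen, scaling to pan-epithelial genes without *Epcam* and *Cldn7* and the sum of *Dsg1a*, *Dsg1b* and *Dsg1c*.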

Additional observations from a re-analysis of the deposited data

How the results depend on the processing

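The count of 3 members called for SOX2-GFPhigh was within 1.5 times under the alternatives tried, at 2 after scaling to pan-epithelial genes, with or without *Epcam* and *Cldn7* among them, and at 2 with a 2-fold limit. The 1 member called for SOX2-GFPlow became 2 after scaling to pan-epithelial genes, 2 with no FPKM minimum (*Dsg4* added) and 0 with a 2-fold limit. The members' median log2 ratio of 0.35 was 0.25 on the TPM scale, 0.39 after scaling to the median ratio, 0.29 with no FPKM minimum, 0.17 after scaling to pan-epithelial genes without *Epcam* and *Cldn7*, and -0.17 after scaling to all 6 of them, which lowers every ratio alike by construction. On that last scale the log2 ratio was -0.29 for *Dsg2*, -0.17 for *Dsp*, -0.038 for *Pkp1* and -0.31 for *Pkp3*. Of 61 values of single members under alternatives, the other 57 kept their direction, which was largely fixed by construction. A pseudocount cannot reverse a ratio. The shifts for TPM (-0.10), the median ratio (0.04) and the reference without *Epcam* and *Cldn7* (-0.18) were smaller than any member's log2 ratio (*Pkp3* was nearest to no difference, at 0.21). Over all genes, calls for SOX2-GFPhigh numbered 1020, and 3128 with no minimum, 1540 at 1 FPKM, 448 at 2-fold and 370 after scaling to pan-epithelial genes. Calls for SOX2-GFPlow numbered 956, and 3229, 1558, 466 and 5325 under the same settings, 1613 without *Epcam* and *Cldn7* in the reference, and 632 with 5 FPKM in each population. No paired analysis was possible because each population has 1 library. Depth limits the ratio of *Dsg4* to its counting interval, and near-identical copies limit *Dsg1a*.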
